A study of Mus musculus with 21 samples.

Results

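The response of ribosome footprints to the removal of RACK1 was described gene by gene in mouse embryonic stem cells, together with the change in translation efficiency, the footprint change minus the mRNA change on the log2 scale. Every gene of the RACK1 comparison was a member, after 17 entries whose symbols a spreadsheet had turned into dates and 4 with duplicated symbols had been dropped, which left 12884 of 12905 entries. The series as a whole covered 13232 genes in 3 lines. The tested line had the genotype RACK1-AID/RPS26-Tir1 Ribo-Tweezer in E14 mESC, a line of pluripotent cells from the early mouse embryo. Its RACK1 carries an auxin-inducible degron (AID), a tag that the plant receptor Tir1 recognises when the auxin IAA is present, and cells received IAA or the solvent DMSO for 8 h. The lines set against it, RPLP0-AID/RPS26-Tir1 and RPLP1-AID/RPS26-Tir1, carry the tag on a stalk protein of the large ribosomal subunit, were treated in the same way and have their own DMSO controls. All 3 lines therefore carry Tir1 tied to RPS26. Every sample came from a degron line, and what IAA does by itself and what RACK1 loss does therefore cannot be told apart. Whether a line is 1 clone was not stated.

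Each line had 3 mRNA samples after IAA, 3 mRNA samples after DMSO, with polyadenylated RNA as input, beside 1 footprint library in which all replicates of both treatments were combined. The values are the authors' own log2 changes and false discovery rates (FDR), so no level per sample and no read depth was known, and the sources used here do not say how an error was obtained from the combined footprint library. The labels do not say that replicates were separate cultures, so the FDRs may measure technical spread. A positive change is read as higher after IAA. The changes are relative to the other genes of a library, so a shift common to all mRNAs cannot be seen, and fewer cells of a type and less RNA per cell cannot be told apart. All 10 embryonic stem cell markers examined were in the table, with a median footprint change of -0.03, and 4 of 8 fibroblast markers were, with a median of -0.25; their levels are unknown.

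RACK1 is a WD-repeat scaffold protein that sits on the small ribosomal subunit, at its head, close to where mRNA leaves the ribosome. It docks signalling kinases on the ribosome, and where ribosomes collide it is needed for marking small-subunit proteins with ubiquitin and for stopping translation of the faulty message. Ribosome profiling sequences the mRNA pieces that ribosomes cover. A gene whose footprints move with its mRNA keeps its translation efficiency, and a gene whose footprints move alone changes it.

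Few genes changed in footprints. At an FDR below 0.05, 4 of 12884 genes passed (0.031%), 3 higher and 1 lower, in the authors' deposited table. Ifrd1, a transcriptional co-regulator whose mRNA has an upstream open reading frame, rose by 0.75 in footprints (implied SE 0.14, FDR 0.000382) with 0.34 in mRNA (FDR 0.149), per the authors' deposited table. Fos, a subunit of the AP-1 transcription factor, rose by 0.92 in footprints (SE 0.18, FDR 0.00151) beside an mRNA change of 1.11 (FDR 0.00143), and Egr1, a growth-response zinc finger factor, rose by 0.87 (SE 0.17, FDR 0.00151) beside 1.19, both in the authors' deposited table. Pck2, the mitochondrial phosphoenolpyruvate carboxykinase, fell by 0.46 in footprints (SE 0.10, FDR 0.0228) and had -0.21 in mRNA (FDR 0.642) in the authors' deposited table. Translation efficiency had a change of 0.41 for Ifrd1, -0.19 for Fos, -0.32 for Egr1 and -0.25 for Pck2, and none of the 4 passed the test of translation efficiency described further on. The nearest genes outside the threshold were Zfp472 (0.40, FDR 0.0645), Id2 (0.66, FDR 0.117) and Zfp157 (0.37, FDR 0.117), higher, and Dgke (-0.39, FDR 0.166), lower, in the authors' deposited table. Rack1 itself had -0.08 in footprints (FDR 0.902) in the authors' deposited table; a degron acts on the protein, so this does not check the removal.

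The whole distribution was narrow. Over all genes the footprint change had a median of -0.01, with an interquartile range of -0.09 to 0.07 and an SD of 0.18, and 45.1% of genes were above 0. The mRNA change had a median of 0.00 and an SD of 0.36, and translation efficiency a median of -0.01 and an SD of 0.39. The SE implied by a fold change and its FDR had a median of 0.0972 for footprints, 0.165 for mRNA and 0.193 for translation efficiency, so most of the spread in translation efficiency came with the mRNA side. Implied p-values, obtained by undoing the FDR adjustment, were below 0.05 for 509 genes with higher footprints (3.95%) and 560 with lower footprints (4.35%), which are the shares to set the lists against.

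The authors' own footprint class reaches up to an FDR of 0.341 and holds 81 genes, 38 higher (0.295%) and 43 lower (0.334%). In the RPLP0 and RPLP1 lines the class reaches only up to FDRs of 0.0997 and 0.0999, so membership is a looser call in RACK1. At an FDR below 0.1, 5 genes of the RACK1 line passed. The last genes inside were Phc3 (0.36) and Lmbrd2 (-0.31), and the first outside were Bcor (-0.31, FDR 0.352) and Rasd1 (0.53, FDR 0.356), per the authors' deposited table. The median change was 0.41 among the higher genes and -0.36 among the lower ones. The mRNA change was positive for 24 of the 38 higher genes and negative for 38 of the 43 lower ones. Both assays had passed the authors' own thresholds for 13 of the 81 genes, all with the same sign. An unadjusted p for translation efficiency below 0.05 was found for 19 of the 81, beside 1022 of all 12884 genes. After adjustment 0 of the 81 passed. The class was chosen by footprint change, which is also a term of translation efficiency, so the 19 are not independent of that choice. The scatter plot of both assays shows the class as a band on both sides of 0, with the lower genes mostly left of the axis.

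**Figure D1:**
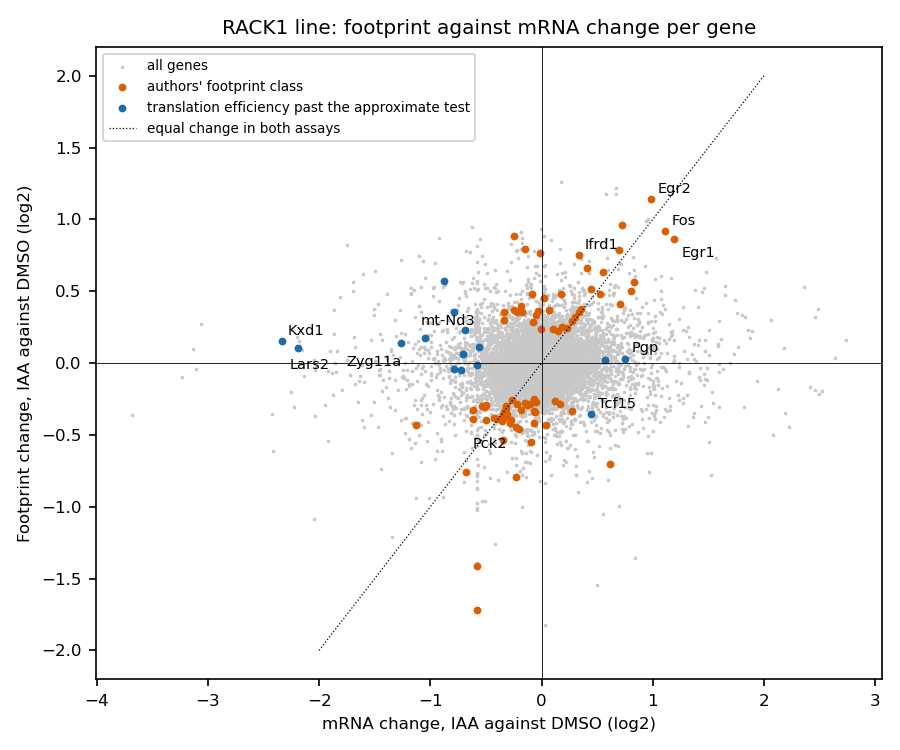
Footprint change (vertical, log2) against mRNA change (horizontal, log2) of 12884 genes after IAA against DMSO in the RACK1 line; orange marks the authors' footprint class, blue the genes past the approximate test of translation efficiency, and the dotted line equal change. Fos, Egr1 and Egr2 lie toward the upper right, Kxd1 and Lars2 lie far to the left with footprint changes of 0.15 and 0.10, and the cloud is wider along the mRNA axis (SD 0.36) than along the footprint axis (SD 0.18).

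Immediate-early genes, which growth signals switch on without new protein synthesis, had high footprint changes as a list. Of 27 measured members, 2 passed at an FDR below 0.05, Fos and Egr1, and 6 were in the authors' class, all higher. The list's median was 0.14 for footprints, 0.38 for mRNA and -0.21 for translation efficiency. An implied footprint p below 0.05 was found for 12 members higher (44.4%) and 1 lower (3.70%). Junb, another AP-1 subunit, had 0.50 in footprints (FDR 0.192) and 0.80 in mRNA, and Egr2, a relative of Egr1, had 1.14 (FDR 0.24) and 0.99, in the authors' deposited table. Klf2, a Krüppel-like factor, had 0.20 in footprints beside 0.82 in mRNA, and Maff, a small Maf factor, 0.09 beside 0.56, in the authors' deposited table. Translation efficiency was below 0 for all but 6 of the 27, with 4 at an unadjusted p below 0.05 and none called. Feedback inhibitors of ERK signalling, which the same signals induce, had a median of 0.01 over 22 genes. Dusp1, a phosphatase of MAP kinases, had 0.29 in footprints beside 0.74 in mRNA, Spry1 had 0.45 and Spry4 -0.41 in the authors' deposited table, so the members went both ways.

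Zinc finger genes with a Zfp symbol, most of them DNA-binding repressors with tandem C2H2 fingers, were the largest list with footprints mostly above 0. Of 347 genes, 260 had a positive footprint change and 251 a positive translation efficiency. The medians were 0.10 for footprints, -0.08 for mRNA and 0.17 for translation efficiency. None passed at an FDR below 0.05; 9 were in the authors' class as higher and 1 as lower. An implied footprint p below 0.05 was found for 62 higher (17.9%) and 3 lower (0.865%). For translation efficiency, unadjusted p-values below 0.05 were found for 47 higher (13.5%) and 8 lower (2.31%), against 3.96% and 3.97% of all genes. Zfp472 had the smallest FDR of the list, with 0.40 in footprints (FDR 0.0645) against -0.18 in mRNA, then Zfp157 with 0.37 against 0.07, in the authors' deposited table. Larger changes with larger errors reached 0.84. Zfp60 had 0.29 in footprints against -0.42 in mRNA in the authors' deposited table, a translation efficiency of 0.71 (SE 0.19). Zfp36, with 0.64 and 0.55 in the authors' deposited table, is in the list by its symbol only: it is an mRNA decay factor of another finger type and an immediate-early gene. The 47 genes numbered Zfp900 to Zfp999, which in mouse are mostly young and clustered copies, had a median of 0.18 in footprints, -0.21 in mRNA and 0.36 in translation efficiency, with 41 above 0 in footprints. The other number ranges were lower, with medians of 0.09 over 163 genes up to Zfp499 and 0.09 over 137 genes from Zfp500 to Zfp899. Near-identical copies share reads, and the sources used here do not say how the authors assigned these. The 62 BTB and SCAN zinc finger factors, which recruit co-regulators through those domains, had a median of 0.03 in footprints and -0.02 in translation efficiency.

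Messages controlled by upstream open reading frames, which often let the main protein through when initiation is impaired, had a median footprint change of 0.01 over 23 genes. An implied p below 0.05 was found for 6 higher (26.1%) and 2 lower (8.70%). Beside Ifrd1, Pnrc2, a decapping co-activator, had 0.46 in footprints (FDR 0.336) and 0.03 in mRNA in the authors' deposited table. Ppp1r15a, which recruits the phosphatase that reverses the stress mark on eIF2, had 0.29 against -0.12 in the authors' deposited table. Ddit3, a stress transcription factor, had 0.50 in footprints and 0.51 in mRNA in the authors' deposited table. The changes in translation efficiency were 0.41 for Ifrd1, 0.43 for Pnrc2 and 0.42 for Ppp1r15a, against 0.00 for Ddit3. None of these passed after adjustment.

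Genes of amino acid supply and stress that the factor ATF4 drives had the lowest footprint median of the lists, apart from the 4 fibroblast markers. Over 45 genes it was -0.15, beside -0.10 for mRNA and -0.03 for translation efficiency. Pck2 fell, 6 members were in the authors' class as lower and none as higher. An implied p below 0.05 was found for 15 members lower (33.3%) and 1 higher (2.22%). Chac1, which cleaves glutathione, had -0.44 in footprints (FDR 0.222) and -0.23 in mRNA, and Trib3, a pseudokinase, -0.31 (FDR 0.309) and -0.32, in the authors' deposited table. Slc1a4, a transporter of small neutral amino acids, had -0.34 in both assays, and Mthfd2, of mitochondrial one-carbon metabolism, -0.32 and -0.18, in the authors' deposited table; Mthfd2 was chosen after its values were seen. Atf4, the factor itself, had -0.09 in footprints (FDR 0.833) and -0.01 in mRNA in the authors' deposited table; it was chosen after its values were seen.

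A DNA element known from ATF4 targets is the amino acid response element, whose core can be written TGATGNAA on either strand. It was searched in RefSeq promoter windows of GRCm38.p6, from 250 bases before to 50 bases after the annotated start. It stood in 14 of 37 targets with a window (37.8%), against 1304 of all 32851 windows (3.97%) and 277 of the 10256 genes of the table with a window (2.70%). Pck2 and Chac1 are shown because they had the lowest footprint changes among the holders, and Vldlr, the lipoprotein receptor, because its element has the same letters as that of Chac1 (chosen after its values were seen). The capitals mark the element, which stands on the minus strand relative to each gene.
Pck2, chr14:55540148-55540185, plus strand: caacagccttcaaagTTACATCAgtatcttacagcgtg
Chac1, chr2:119351034-119351071, plus strand: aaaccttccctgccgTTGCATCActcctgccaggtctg
Vldlr, chr19:27216805-27216842, plus strand: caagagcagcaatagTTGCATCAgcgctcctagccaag
Of the 14 holders 13 had a footprint change below 0, from -0.46 for Pck2 to 0.08 for Nupr1, and 5 were lower at an implied p below 0.05. The median was -0.14 with the element and -0.14 without it, so the holders did not stand apart within the list. A match is a description of letters and not of binding.

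Chaperones and folding enzymes of the endoplasmic reticulum (ER), with other genes of its unfolded protein response, had nearly the same median, -0.14 in footprints over 29 genes, with -0.06 in mRNA and -0.07 in translation efficiency. No member passed at an FDR below 0.05, and 26 of 29 were below 0. An implied p below 0.05 was found for 6 lower (20.7%) and 1 higher (3.45%). Herpud1, of ER-associated degradation, had -0.28 (FDR 0.323), and Dnajc3, a co-chaperone that restrains the ER stress kinase PERK, -0.20, while the co-chaperone Dnajb9 had 0.23, in the authors' deposited table. The ER stress element, CCAAT and CCACG with 9 bases between them, stood on either strand in 9 of the 24 members with a window (37.5%), against 39 of all 32851 windows (0.119%) and 19 of the 10256 genes of the table with a window (0.185%). Windows of Hspa5, the main ER chaperone of the Hsp70 family, of Dnajc3, of the oxidoreductase Pdia6 and of the membrane chaperone Canx are shown. The search fixed the spacing at 9 bases, so the equal spacing is not a result. Hspa5, Pdia6 and Canx were chosen after their values were seen. The capitals mark both ends of the element.
Hspa5, chr2:34772010-34772058, plus strand: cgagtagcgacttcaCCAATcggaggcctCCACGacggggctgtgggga
Dnajc3, chr14:118937812-118937860, plus strand: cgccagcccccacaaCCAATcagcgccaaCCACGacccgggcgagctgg
Pdia6, chr12:17266476-17266524, plus strand: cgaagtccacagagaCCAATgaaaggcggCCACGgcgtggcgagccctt
Canx, chr11:50325785-50325833, minus strand: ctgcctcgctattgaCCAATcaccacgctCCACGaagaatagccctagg
All 9 holders in the list, Hspa5, Hsp90b1, Calr, Dnajc3, Derl3, Pdia6, Canx, Creld2 and Syvn1, had footprint changes below 0, from -0.25 for Hspa5 to -0.07 for Syvn1 in the authors' deposited table. Of the 9 holders 2 were lower at an implied p below 0.05, beside 6 of all 29 members. The 5 members without a window aside, the holders had a median of -0.19, against -0.05 for the 15 whose window lacks the element. Among all genes 19 held it, with a median of -0.14, and 16 of them were below 0; the 10 outside the ER list had a median of -0.08. Windows were found for 79.6% of the genes in the table and 82.8% of the ER list; holders were not compared with all other genes. No window of the ER list held both elements, Herpud1 being the one member with an amino acid response element. In mRNA, Hspa5 had -0.42 (FDR 0.0234) in the authors' deposited table, so its translation efficiency was 0.17 (SE 0.17).

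**Figure D2:**
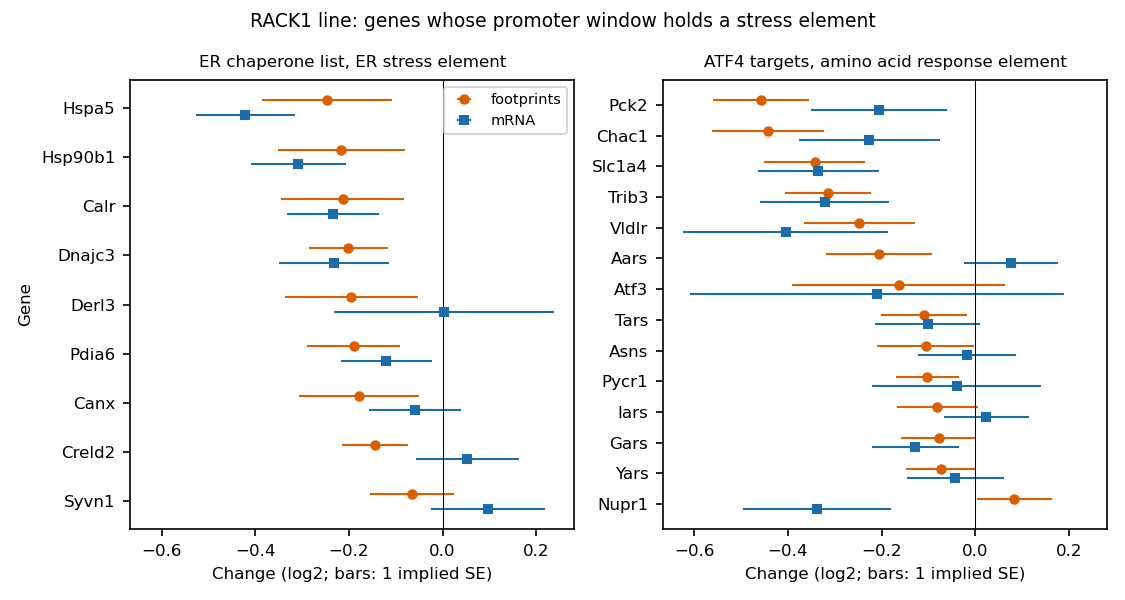
Footprint (orange circles) and mRNA (blue squares) changes in log2, IAA against DMSO in the RACK1 line, with bars of 1 implied SE, for 9 ER genes with an ER stress element (left) and 14 ATF4 targets with an amino acid response element (right). All 9 footprint values on the left and 13 of 14 on the right lie below 0, and Nupr1 is the exception at 0.08.

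Lists with many proteins that are made at the ER or serve the secretory pathway also had footprint medians below that of all genes. Not every member of these lists is made at the ER. The 115 genes of N-glycosylation and Golgi glycosylation had a median of -0.09, with 3 in the authors' class as lower, Pomgnt1 (-0.55), Galnt12 (-0.42) and Man1a2 (-0.42), which add or trim sugars, per the authors' deposited table. An implied p below 0.05 was found for 18 lower (15.7%) and 1 higher (0.870%). The 67 laminins, collagens and other matrix proteins had -0.14 in footprints, 0.07 in mRNA and -0.17 in translation efficiency, with 9 lower (13.4%) and 0 higher. Col13a1, a membrane-bound collagen, had -0.26 against 0.28 in mRNA, and Hspg2, the basement membrane proteoglycan perlecan, -0.24 against -0.51, in the authors' deposited table. The 63 cadherins, protocadherins and integrins, which hold cells to each other and to the matrix, had -0.12, with 5 lower (7.94%) and 0 higher; Itga9 had the smallest p, with -0.32 in the authors' deposited table, while the lowest change, with a larger error, was -0.50. The 204 solute carriers had -0.10 in footprints, 0.01 in mRNA and -0.11 in translation efficiency, with 163 of them below 0 in footprints and 21 lower (10.3%) against 2 higher (0.980%). Slc9a8, a sodium-proton exchanger of the Golgi, had -0.30 and Slc35e1, of the nucleotide-sugar carrier family, -0.25 in the authors' deposited table. The 174 TMEM proteins, named only for crossing a membrane, had -0.07, with 15 lower (8.62%) and 2 higher (1.15%). The 62 lysosomal genes had -0.06 with 4 lower (6.45%). The 34 genes of signal recognition and translocation had -0.05 with 2 lower (5.88%), and both footprint shares were close to that of all genes. In translation efficiency the lysosomal genes had a median of -0.09, with 51 of 62 below 0. At an unadjusted p for translation efficiency below 0.05, 1 lysosomal gene was higher and 1 lower. Genes of signal recognition and translocation had 0.03, with 15 of 34 below 0. The mitochondrial carriers of the Slc25 family, membrane proteins that do not pass the ER, had 0.01 in footprints over 39 genes, with 1 higher and 1 lower. In translation efficiency these carriers had a median of -0.09, with 26 of 39 below 0. Glycosylation genes had -0.05 there, cadherins, protocadherins and integrins -0.03 and TMEM proteins -0.06. The Slc25 value thus lay within the range of the other lists given here.

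Signalling pathways that act through membrane receptors varied. The 28 Nodal, Activin and BMP genes had a median of -0.12, with 8 lower (28.6%) and 1 higher (3.57%) at an implied p below 0.05. Acvr1b, the Activin and Nodal receptor kinase, had -0.39 and the inhibitor Smad7 -0.34, while Id2, a target of BMP, had 0.66, in the authors' deposited table. Outside that list, the Activin-type ligands Inhbb, with -0.53, and Inhbe, with -0.76, were in the authors' class as lower, per the authors' deposited table (Inhbe chosen after its values were seen). They are not counted in the values of the list. The 46 Wnt genes had -0.07 in footprints and -0.11 in translation efficiency, with 6 lower (13.0%) and 3 higher (6.52%) at an implied footprint p below 0.05. Porcn, the enzyme that lipidates Wnt ligands, had the smallest of these p-values, with -0.33 in the authors' deposited table. The 28 Notch genes had -0.06, with 4 lower (14.3%) and 2 higher (7.14%), among them Notch4 at -0.40 and the ligand Dll1 at 0.31 against an mRNA change of 0.76 in the authors' deposited table. The 35 genes of LIF, FGF and insulin signalling had -0.01, the value of all genes, with 2 lower (5.71%) and 1 higher (2.86%), Socs3, a feedback inhibitor of LIF, at 0.32 in the authors' deposited table.

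**Figure D3:**
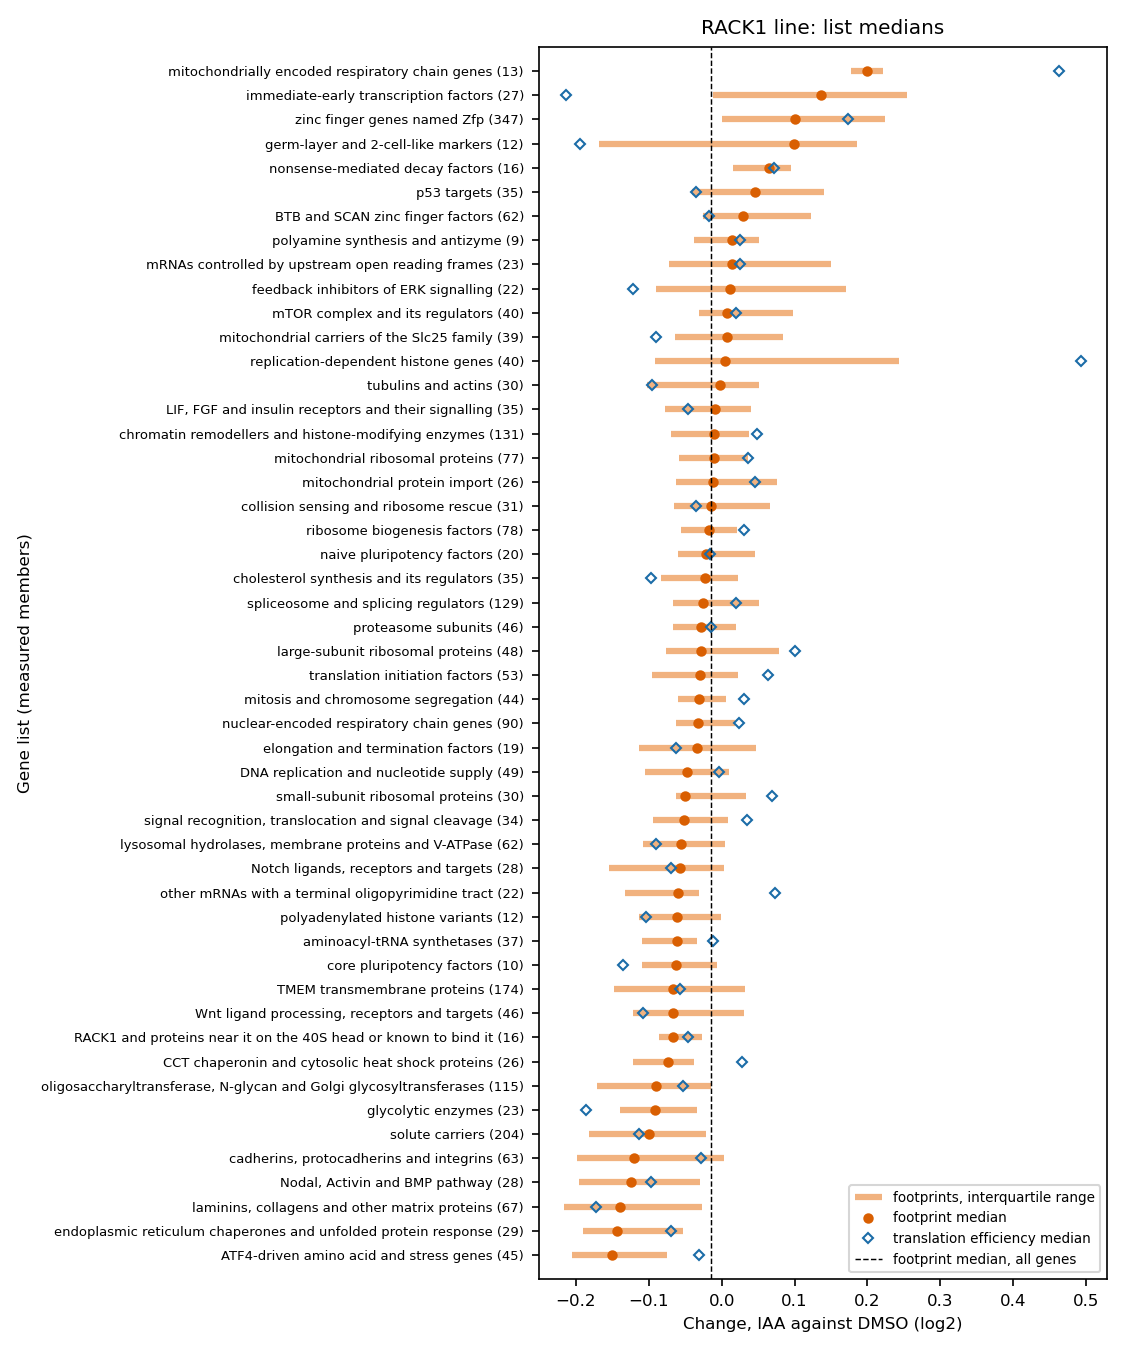
Medians of footprint change (orange circles) and of translation efficiency (open blue diamonds) in log2, IAA against DMSO in the RACK1 line, for the gene lists, with the number of measured members in brackets, the interquartile range of the footprint changes as a bar and the footprint median of all genes as a dashed line. ATF4 targets, ER chaperones and matrix genes lie at the low end (-0.15, -0.14 and -0.14) and mitochondrially encoded genes at the high end (0.20).

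Footprint medians of the translation machinery lay between -0.07 and 0.06, and its lists differed in the balance of signs. The 31 factors of collision sensing and ribosome rescue, the pathway RACK1 is known for, had a median of -0.01 in footprints and -0.03 in translation efficiency, with 2 higher and 1 lower at an implied p below 0.05. Rnf10, a ubiquitin ligase that marks stalled small subunits, had -0.23, and Pelo, which splits stalled ribosomes, had -0.05 in footprints against 0.49 in mRNA, in the authors' deposited table. The list of RACK1 itself and proteins that lie near it on the ribosome or bind it had 16 measured members, with a median of -0.07. Of these 13 were below 0 and 18.8% above 0, against 45.1% of all genes above 0. At an implied p below 0.05, 1 was lower (6.25%) and 0 were higher. Rps2, a small-subunit protein at the mRNA entry side, led the list at -0.19 in the authors' deposited table. Among the other lists of the translation machinery, the share above 0 ran from 13.5% for aminoacyl-tRNA synthetases to 81.25% for nonsense-mediated decay factors. It was 30.0% for small-subunit ribosomal proteins. The 48 large-subunit ribosomal proteins had -0.03 in footprints, -0.10 in mRNA and 0.10 in translation efficiency, and the 30 small-subunit ones -0.05, -0.07 and 0.07. Unadjusted p-values below 0.05 for translation efficiency were found for 6 large-subunit proteins with higher values (12.5%), for 4 small-subunit ones with higher (13.3%) and for 2 with lower ones (6.67%), none of them called. Rpl37a, Rpl26 and Rps15a stood above the rest with 0.38, 0.35 and 0.38 in footprints in the authors' deposited table, at SEs that left each short of the threshold. Processed copies of ribosomal protein genes can share their reads. Other messages with a terminal oligopyrimidine tract had a median of -0.06 over 22, with 19 below 0. Among these Pabpc1, the main cytoplasmic poly(A)-binding protein, had -0.50 in footprints (FDR 0.46) against 0.12 in mRNA in the authors' deposited table. Initiation factors had -0.03 over 53 genes, elongation and termination factors -0.03 over 19, aminoacyl-tRNA synthetases -0.06 over 37 with 32 below 0, ribosome biogenesis factors -0.02 over 78 and nonsense-mediated decay factors 0.06 over 16.

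The 13 mitochondrially encoded respiratory chain genes, translated by mitochondrial ribosomes that do not contain RACK1, all had positive footprint changes, from 0.08 for mt-Atp8 to 0.35 for mt-Nd2 in the authors' deposited table. Their median was 0.20, against 0.00 or below for most lists of nuclear genes; 3 were higher at an implied p below 0.05 (23.1%) and 0 passed at an FDR below 0.05. In mRNA the median was -0.23, so translation efficiency had a median of 0.46, with 9 of 13 higher at an unadjusted p below 0.05 (69.2%). These genes are cut from shared polycistronic transcripts and are not independent of each other; mt-Atp8 was chosen after its values were seen. Nuclear-encoded respiratory chain genes had -0.03 in footprints over 90 genes, mitochondrial ribosomal proteins -0.01 over 77 and import components -0.01 over 26. The 40 replication-dependent histone genes, whose mRNAs end in a stem-loop in place of a poly(A) tail, had a footprint median of 0.01 with 8 higher (20.0%) and 0 lower, an mRNA median of -0.35 and a translation efficiency median of 0.49. Hist1h2ab had 0.88 (FDR 0.341) and Hist1h2bg 0.87 (FDR 0.438) in footprints in the authors' deposited table. The mRNA libraries were made from polyadenylated RNA, and the part of that choice in the values of both groups was not tested. The 12 histone variants with a poly(A) tail had -0.06 in footprints and -0.10 in translation efficiency.

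Core pluripotency factors had a footprint median of -0.06 over 10 genes and -0.14 in translation efficiency, with Trim71, an RNA-binding ubiquitin ligase, at -0.20 in the authors' deposited table. Naive pluripotency factors had -0.02 over 20. Targets of p53 had 0.05 over 35, with Phlda3, an inhibitor of Akt, at 0.33 in the authors' deposited table. Glycolytic enzymes had -0.09 in footprints and -0.19 in translation efficiency over 23 genes, with 1 higher and 0 lower at an implied footprint p below 0.05. Cholesterol synthesis had -0.02 over 35, the proteasome -0.03 over 46, spliceosome genes -0.03 over 129, chromatin modifiers -0.01 over 131, mTOR complex genes 0.01 over 40, mitosis -0.03 over 44 and DNA replication -0.05 over 49. Germ-layer and 2-cell-like markers had 0.10 over 12, and tubulins and actins 0.00 over 30. CCT and heat shock proteins had -0.07 over 26. Hspe1, the mitochondrial co-chaperonin, had 0.58 (FDR 0.509) and Hspa8, the constitutive cytosolic Hsp70, -0.32 (FDR 0.61) in the authors' deposited table.

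Translation efficiency was tested for each gene by its change against the combined implied SEs of both assays, with Benjamini-Hochberg adjustment over all genes. The test is approximate, and the number of calls depended on its error model. Of 12884 genes 15 passed (0.116%), 12 higher and 3 lower, and 1022 had an unadjusted p below 0.05, of which 510 were higher (3.96%) and 512 lower (3.97%). If the errors of both assays are taken to correlate at 0.5, 420 genes passed, and with Student's t on 4 degrees of freedom 4. Lars2, the mitochondrial leucyl-tRNA synthetase, rose by 2.29 in translation efficiency (SE 0.25, adjusted p = 1.44e-15, approximate test), with footprints at 0.10 and mRNA at -2.19 in the authors' deposited table. Kxd1, a subunit of the BORC complex that positions lysosomes, rose by 2.49 (SE 0.29), with footprints at 0.15 and mRNA at -2.34 in the authors' deposited table. mt-Nd3, a subunit of complex I, rose by 1.22 (SE 0.20) and Zyg11a, a substrate adaptor of a cullin ubiquitin ligase, by 1.40 (SE 0.25). The other genes with higher efficiency were Gm21833 (1.45), Gm21897 (1.14), 2810006K23Rik (0.92), Zfp609 (0.77), 1810022K09Rik (0.75), Usmg5 (0.68), Spen (0.68) and Setd5 (0.57). Usmg5 encodes a small subunit of ATP synthase, Spen a transcriptional corepressor that acts with Xist, and Setd5 a chromatin protein. The 3 genes with lower efficiency were Tcf15, a helix-loop-helix factor of early differentiation, which fell by 0.80 (SE 0.19), Pgp, a phosphatase that clears side products of glycolysis, by 0.72 (SE 0.16), and Ddit4, an inhibitor of mTORC1, by 0.55 (SE 0.14).

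These calls rested on mRNA. In absolute size all 15 had a larger mRNA than footprint change, 13 had an mRNA FDR below 0.05 and 0 had a footprint FDR below 0.05, in the authors' deposited table. Footprints had an implied p below 0.05 for 3 of the 15, Gm21897 (0.35), 2810006K23Rik (0.23) and Tcf15 (-0.36), in the authors' deposited table. In 10 of the 15 the assays had opposite signs. The mRNA side made up a median share of 0.761 of the error variance of translation efficiency. The plot of these genes shows the footprint values close to 0 while the mRNA values lie far out.

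**Figure D4:**
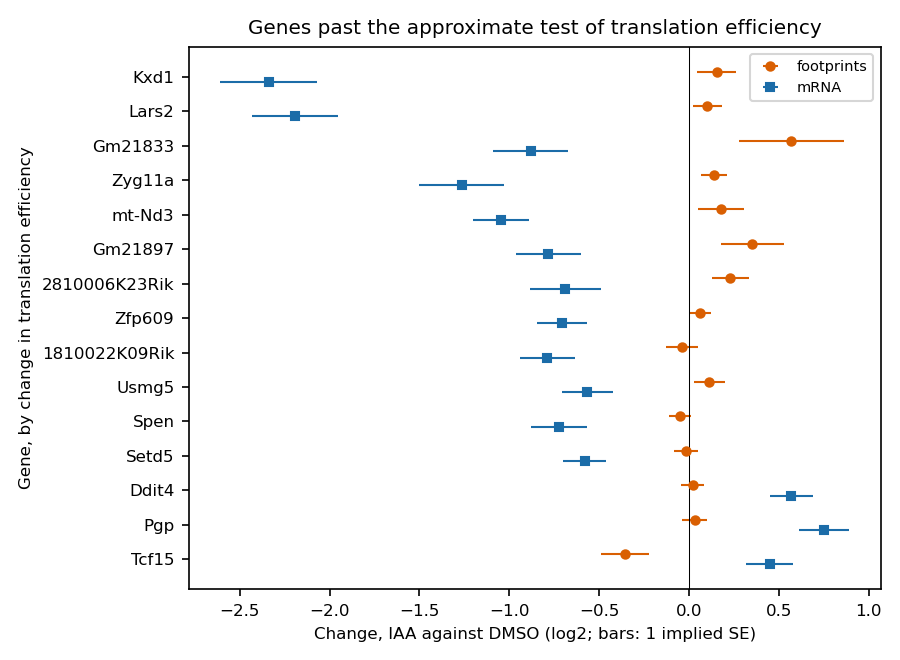
Footprint (orange circles) and mRNA (blue squares) changes in log2, IAA against DMSO in the RACK1 line, with bars of 1 implied SE, for the 15 genes past the approximate test of translation efficiency, highest at the top. Footprint changes run from -0.36 for Tcf15 to 0.57 for Gm21833, while mRNA changes reach -2.34 for Kxd1.

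Read the other way, genes called in mRNA showed how far footprints went along. For 22 genes with higher mRNA (FDR below 0.05) the median mRNA change was 0.56 and the median footprint change 0.15, with 15 of the same sign and 9 higher at an implied footprint p below 0.05 (40.9%). Those 9 were Fos, Egr1, Junb, Bhlhe40, Dusp1, Dll1, Phlda3, Socs3 and Klf2. For 40 genes with lower mRNA the medians were -0.67 and -0.07, with 29 of the same sign and 10 lower in footprints (25%), among them Dgke, Dido1, Ankrd11, Trim56 and Hspg2, and 1 higher, Gm21897. Genes were chosen here by their mRNA FDR, which favours large mRNA values, and those of these that no list leads were chosen after their values were seen. Across all 12884 genes the Spearman correlation of footprint and mRNA change was 0.121, and among the 3221 genes with the smallest mRNA SE it was 0.184, against 0.0588 among the 3221 with the largest; genes are not independent replicates. Gene span, known for 98.2% of genes from RefSeq, moved with the mRNA side more than with footprints. For the 2531 shortest genes the medians were 0.07 for mRNA, -0.01 for footprints and -0.07 for translation efficiency, and for the 2531 longest -0.04, -0.02 and 0.02, and the part of span in the list values was not tested.

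The footprint response of the RACK1 line was set against those of the stalk protein lines by the difference of changes over the combined implied SEs. Against RPLP1, 13 of 12117 shared genes differed (0.107%), 3 higher and 10 lower in RACK1, and against RPLP0, 77 of 12028 (0.64%), 18 higher and 59 lower. Unadjusted p-values below 0.05 numbered 1276 and 1945. Among genes with an SE below the median in both lines, 12 differed from RPLP1 and 6 from RPLP0. Ifrd1 had 0.75 in RACK1, against 0.01 in RPLP1 and 0.34 in RPLP0, in the authors' deposited tables, and differed from RPLP1 (adjusted p = 0.00576, approximate test) while the difference from RPLP0, 0.41, did not pass (adjusted p = 0.24, approximate test). Fos had 0.92 in RACK1, against 0.17 in RPLP1 and 0.27 in RPLP0, and Egr1 0.87, against 0.15 and 0.17, in the authors' deposited tables; the adjusted p-values of these differences lay between 0.0557 and 0.114 in the approximate test. Pck2 was below 0 in all 3 lines, at -0.46 in RACK1, -0.22 in RPLP1 and -0.33 in RPLP0, in the authors' deposited tables. Of the genes in the authors' footprint class for RACK1, 58 of 76 had the same sign in RPLP1 and 50 of 78 in RPLP0, and 3 and 6 differed. By direction these were 27 of 36 higher and 31 of 40 lower genes in RPLP1, and 21 of 37 and 29 of 41 in RPLP0. The same-sign share over all shared genes was not computed, so these counts have no background to be read against. The Spearman correlation of footprint changes over shared genes was 0.234 with RPLP1 and 0.00483 with RPLP0, and that of translation efficiency was -0.123 and -0.0801.

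List medians of the 3 lines are set side by side as descriptions. The Zfp genes had 0.10 in RACK1, against 0.12 in RPLP1 and -0.05 in RPLP0. Solute carriers had -0.10 in RACK1, against -0.22 in RPLP1 and 0.08 in RPLP0, and matrix genes -0.14, against -0.25 and 0.06. Glycosylation genes had -0.09 in RACK1, against -0.21 in RPLP1 and 0.06 in RPLP0. For ATF4 targets the order was another one, with -0.15 in RACK1, against -0.03 in RPLP1 and -0.04 in RPLP0, and ER chaperones had -0.14, -0.13 and -0.08. Mitochondrially encoded genes had 0.20 in RACK1, against 0.05 in RPLP1 and 0.25 in RPLP0. The p53 targets had 0.05 in RACK1, against 0.09 in RPLP1 and 0.46 in RPLP0. By the test of the difference, 8 of the 35 were lower in RACK1 than in RPLP0, beside 59 of all 12028 shared genes. The ATF4 targets hold 1 gene that differed from RPLP0 and 0 that differed from RPLP1, and the matrix genes 1 and 0, so for these lists the differences between lines are medians and carry no test. In translation efficiency the medians had another pattern. Zfp genes had 0.17 in RACK1, against -0.01 in RPLP1 and -0.10 in RPLP0. Solute carriers had -0.11 in RACK1, against 0.12 in RPLP1 and 0.03 in RPLP0, and matrix genes -0.17, against 0.03 and -0.04. ER chaperones had -0.07 in RACK1, against 0.11 in RPLP1 and 0.06 in RPLP0, and mitochondrially encoded genes 0.46, against 0.22 and 0.24.

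**Figure D5:**
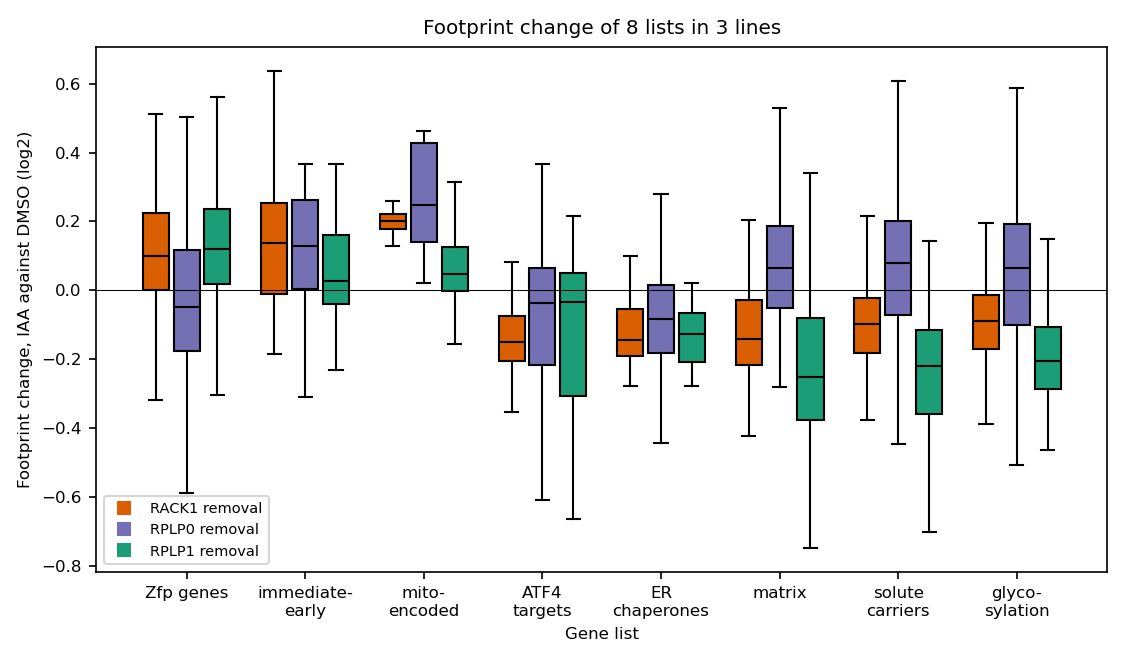
Footprint change in log2, IAA against DMSO, of the members of 8 gene lists after removal of RACK1 (orange), RPLP0 (purple) and RPLP1 (green); boxes show the interquartile range with the median, whiskers reach the last value within 1.5 box lengths, and values beyond are not drawn. Solute carriers, matrix and glycosylation genes lie below 0 in RACK1 and RPLP1 and above 0 in RPLP0 (for solute carriers -0.10, -0.22 and 0.08).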

How the data were processed

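The deposited tables give, per the file headers, the authors' log2 change in mRNA and in footprints of every gene of a line. Beside each stands the authors' FDR, a p-value adjusted for false discoveries, and every gene has a class code. The code stands for no change, mRNA change, footprint change or both. Aligner, counting, test, low-count filter, annotation and genome build are not stated in the sources used here, nor is any read depth. The members and gene lists (52) were chosen with earlier results of these data known. FDRs were turned back into p-values by undoing the Benjamini-Hochberg step, runs of equal FDR taking the middle rank, and the implied SE is the fold change over the normal quantile. Translation efficiency and differences between lines were tested against combined SEs, two-sided, assuming normal and independent errors, with Benjamini-Hochberg adjustment over all genes, called below 0.05; the script was tested on simulated data. Lists got counts and medians and no test. Named genes are those called, the 10 smallest footprint FDRs in each direction, and of each list up to 3 by footprint and 2 by efficiency p. Promoters and spans are from RefSeq (GRCm38.p6), matched by symbol or synonym. Python 3.11.15, scipy 1.17.1 and pandas 2.3.3 were used. Alternatives were the threshold, error model, centring, precision and dropped entries. Protein features were not analysed here.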

Additional observations from a re-analysis of the deposited data

Results flagged for a closer look

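Genes of the authors' footprint class, of the calls in translation efficiency or singled out by the rule for named genes are listed here where their footprint change in the RACK1 line differed from that in another line, with the difference, by the approximate test with adjusted p below 0.05, as values with no explanation. Against RPLP1, the difference (RACK1 minus RPLP1) was 0.74 for Ifrd1, 1.03 for Dll1, -0.57 for Mat2a, the methionine adenosyltransferase, and -0.47 for Dido1. Against RPLP0, the difference (RACK1 minus RPLP0) was -0.67 for Slc9a8, -3.30 for Nav3, 0.69 for Zfp472, -0.66 for Rnf10, -0.56 for Epha2, an ephrin receptor, and -0.57 for Dnajb12, an ER membrane co-chaperone. It was 0.54 for Idi1, of cholesterol synthesis, -0.44 for Mfap3, -0.56 for Nme1, a nucleoside diphosphate kinase, and -0.54 for Trim71. Nav3 had -1.72 in RACK1 and 1.58 in RPLP0 in the authors' deposited tables, and it is 1 of 43 genes with the same mRNA change of -0.58 in RACK1. Dll1 had 0.31 in RACK1 and -0.72 in RPLP1, and Zfp472 0.40 in RACK1 and -0.30 in RPLP0, in the authors' deposited tables.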

How the results depend on the processing

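Footprint calls numbered 4, 5 at an FDR below 0.1, 81 at the threshold of the authors' class, and 4 with the dropped entries kept. The 15 calls in translation efficiency became 420 with an error correlation of 0.5, 4 with Student's t on 4 degrees of freedom, 2 with FDRs used as p, and 9 among 5115 more precise genes. Of those, 15, 3, 2 and 7 were among the 15, and Kxd1 and Lars2 passed in each setting that held them. Centring, leaving out runs of equal mRNA change, and spreading runs of equal FDR by fold change (the last chosen after seeing the data) each gave 15, with 14, 15 and 15 of the same genes. Against RPLP0 the 77 differences became 6 among more precise genes and 66 after centring; against RPLP1 the 13 became 12 and 14. Of 156 alternative values of footprint list medians 57 moved by more than the SE of the median and 14 changed sign. Of those 14, 1 came from a median of at least 0.05 in size, that of the fibroblast markers. Of 152 for translation efficiency 20 moved and 14 changed sign, 3 from such medians. These 3 arose with more precise genes only. Small-subunit ribosomal proteins went from 0.07 to -0.08 (3 genes) and elongation and termination factors from -0.06 to 0.01 (8 genes). Notch genes went from -0.07 to 0.02 (12 genes). No replicate could be left out, since values per sample were not used. No paired analysis was possible because the result comes from the authors' comparisons and not from samples. The alternatives for protein features were not run. Depth is unknown, so the implied SE is the limit on precision, and the cause of these moves was not tested.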

Other observations

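Families grouped by symbol, chosen after their values were seen, are given as values only. Footprint medians in the RACK1 line were -0.15 for 24 protocadherin genes (Pcdh), -0.14 for 17 adhesion receptors of the Adgr family, of which 15 were below 0, -0.13 for 12 receptor phosphatases (Ptpr), -0.12 for 23 Adam proteases and -0.12 for 16 semaphorins. In RPLP1 the medians were -0.24, -0.27, -0.25, -0.24 and -0.37, and in RPLP0 0.17, 0.05, 0.06, -0.07 and 0.04. At an implied p below 0.05, 1 (4.17%), 2 (11.8%), 1 (8.33%), 4 (17.4%) and 0 members were lower, beside 4.35% of all genes, and none was higher. These families overlap with lists described above and do not add to what those show.

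Among intracellular families, 19 of 20 Hnrnp genes, which bind nuclear RNA, had footprint changes below 0, with a median of -0.09 in RACK1, against 0.08 in RPLP1 and 0.05 in RPLP0. Klhl genes, adaptors of a cullin ubiquitin ligase, were above 0 in 21 of 23, with a median of 0.11 in RACK1, against 0.05 in RPLP1 and -0.05 in RPLP0. At an implied p below 0.05, 1 Hnrnp gene was lower and 0 Klhl genes were higher, and neither family was tested as a group.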
